A study of Homo sapiens with 4 samples.

Results

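The transcription factors described here are 10 genes that set the balance between epithelial and mesenchymal cell states. ZEB1, ZEB2, SNAI1, SNAI2 and TWIST1 are inducers of the mesenchymal state, and GRHL1, GRHL2, OVOL1, OVOL2 and ELF3 are factors of the epithelial state. They are 10 of 42067 gene symbols in the deposited tables and were picked for these known roles, with earlier results of these data known. The transcript model of each was selected on measured values, as the one with the highest read total over all 4 libraries. These totals are not used as results of the comparison between groups. RNA came from Huh7, an established human hepatocellular carcinoma line. The H2O2 group received 300 µM hydrogen peroxide for 4 days and the mock group was mock-treated for the same time, and in both groups the medium was changed every day. Each group had 2 libraries, titled H and Q, letters whose meaning the labels do not explain. Nothing in the labels said that the libraries came from separate cultures, so p-values measure only the spread between these libraries, which may be technical.

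Epithelial cells hold together through E-cadherin junctions, and the epithelial to mesenchymal transition loosens them. SNAI, ZEB and TWIST proteins bind E-box sequences, and they are known to shut off E-cadherin and other junction genes. GRHL proteins and ELF3 activate epithelial genes, and OVOL proteins are zinc finger repressors that hold down mesenchymal inducers, ZEB1 among them. In adult liver the hepatocyte is an epithelial cell, and carcinoma lines derived from it keep part of that programme.

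Libraries held 78126878 to 88409567 mapped read mates, with 87.4% to 91.7% of reads aligned. All 9 hepatocyte markers examined, among them ALB, AFP, GPC3, TTR, APOA1, APOB, HNF4A and SERPINA1, were detected in every library. Their summed level was 18290 and 10720 CPM in the H2O2 libraries (H, then Q), against 14140 and 5586 CPM in the mock libraries (H, then Q). ALB gave the largest part of this sum. Of the 9, 7 had a log2 fold change above 0 and 2 below, HNF4A (−0.63, SE 0.34) and TTR (−0.31, SE 0.29). CPM here means counts scaled to library size, with TMM factors, and per kilobase values divide them by transcript length. The defining blood marker PTPRC stayed between 0.0516 and 0.272 CPM, and the haemoglobin gene HBB had no read in either H2O2 library. All 6 blood markers together lay at 673 and 635 CPM in H2O2 and at 471 and 474 CPM in mock. Most of that was LYZ, at 596 and 538 CPM in H2O2 and 419 and 391.6 CPM in mock, followed by CD68, at 69.9 and 93.6 CPM in H2O2 and 48.2 and 77.6 CPM in mock. All 7 stromal markers together lay at 44.6 and 31.3 CPM in H2O2 and at 21.3 and 21.6 CPM in mock, nearly all of it from PDGFRA, while DCN lay between 0.0413 and 0.239 CPM. ZEB1 and SNAI1 were also higher in H2O2, and the part of the PDGFRA, LYZ and CD68 levels in their values was not tested. The 5 endothelial markers summed to 2.93 and 2.63 CPM in H2O2 and to 2.42 and 3.25 CPM in mock. RNA was measured in bulk, so fewer expressing cells and less RNA per cell cannot be told apart.

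The H2O2 mean of ZEB1 was 2.02 times the mock mean and that of SNAI1 2.11 times, while OVOL1 lay at 0.509 and OVOL2 at 0.402 times the mock mean. ZEB2, TWIST1, GRHL2 and ELF3 had overlapping groups, GRHL1 differed little, and SNAI2 was close to absent. Over the 27514 genes tested, edgeR called no gene at an adjusted p of 0.05, which is 0% of genes higher and 0% lower, and none of the 9 factors tested passed. Log2 fold changes were above 0 for 5 of the 9, against 47.2% of all tested genes. At an unadjusted p under 0.05, which 1898 genes had in all, ZEB1 and SNAI1 were higher and OVOL1 and OVOL2 lower, against 3.11% and 3.79% of all tested genes in these directions. DESeq2 called 139 genes, and OVOL2 was the only one of the 9 among them.

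**Figure D1:**
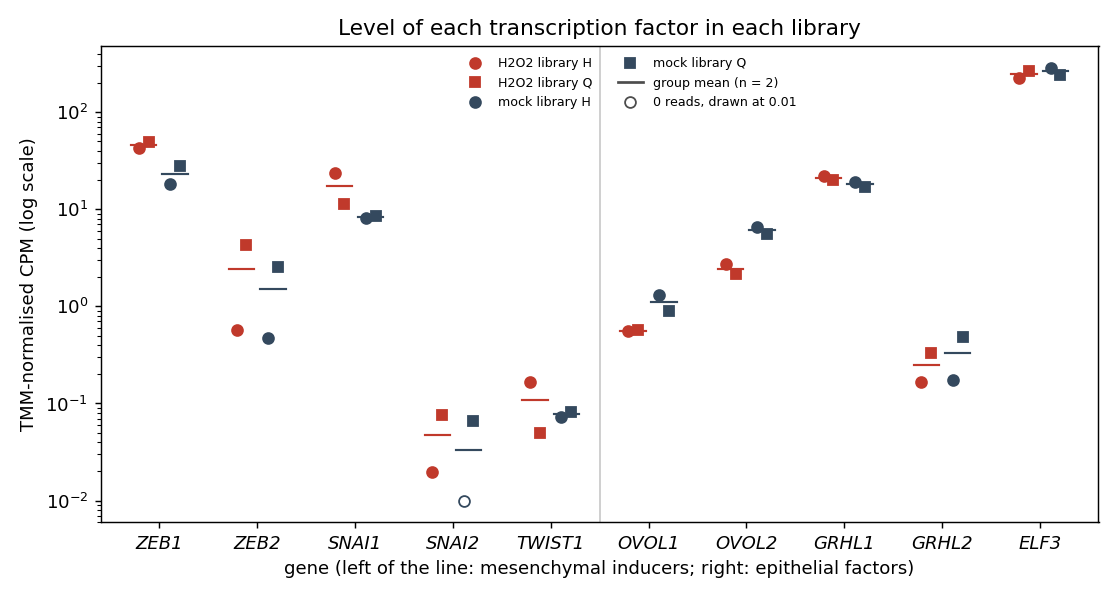
TMM-normalised CPM on a log axis for each of the 10 factors, with H2O2 libraries in red left of mock libraries in dark blue, circles for letter H, squares for letter Q and a line at the group mean of 2 libraries (the open circle marks 0 reads). ZEB1 and SNAI1 were higher and OVOL1 and OVOL2 lower in both H2O2 libraries than in both mock libraries, while ZEB2 separated by letter.

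ZEB1, a zinc finger and homeodomain repressor on the plus strand of chromosome 10, had the steadiest upward difference among the inducers. It measured 43.3 and 49.4 CPM in the H2O2 libraries (H, then Q), against 18.0 and 27.8 CPM in the mock libraries (H, then Q). Both H2O2 values lay above both mock values, and mock library H was the lowest of the 4. The group means were 46.3 ± 4.38 CPM in H2O2 and 22.9 ± 6.94 CPM in mock (SD, n = 2 each), a log2 fold change of 1.01 (SE 0.27; edgeR, unadjusted p = 0.0124, adjusted p = 0.719). ZEB1 had 4418 and 5912 reads in H2O2 and 1746 and 3373 reads in mock. The tables held 6 RefSeq models of ZEB1, whose totals over the 4 libraries ran from 14928 to 15449 reads. Reads were repeated across models, and differences between ZEB1 isoforms could not be read from them. Counting by strand was not stated, so reads of ZEB1 and of its antisense neighbour cannot be told apart, and the same holds for ZEB2, OVOL1 and ELF3.

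SNAI1, the zinc finger repressor best known for switching off E-cadherin, lies on the plus strand of chromosome 20. It measured 23.9 and 11.2 CPM in the H2O2 libraries (H, then Q), against 8.16 and 8.47 CPM in the mock libraries (H, then Q). The mock libraries were nearly equal, and both H2O2 libraries lay above them, library H far more than library Q. The log2 fold change was 1.08 (SE 0.39; edgeR, unadjusted p = 0.0392, adjusted p = 0.719). Without H2O2 library H it was 0.43, and without H2O2 library Q it was 1.53. The size of the SNAI1 difference therefore rested on H2O2 library H.

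ZEB2, the paralog of ZEB1 on chromosome 2, was set apart by letter rather than by treatment. It measured 0.568 and 4.32 CPM in the H2O2 libraries (H, then Q), against 0.475 and 2.57 CPM in the mock libraries (H, then Q). Both Q libraries were high and both H libraries low, and the groups overlapped. The fold change was 0.68 with an SE of 1.12 (edgeR, adjusted p = 0.89), and it was −1.41 without H2O2 library Q.

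SNAI2, also called Slug, and the basic helix-loop-helix factor TWIST1 were at the edge of detection. SNAI2 on chromosome 8 had 2 and 9 reads in H2O2 libraries H and Q and 0 and 8 reads in mock libraries H and Q, and it did not pass the filter on low counts. A count of 0 allows up to 3 reads, and no test was made at these counts. TWIST1 on chromosome 7 had 17 and 6 reads in H2O2, against 7 and 10 reads in mock. Its H2O2 values lay on both sides of the mock values, with a log2 fold change of 0.46 (SE 0.79; edgeR, adjusted p = 0.895) that was −0.62 without H2O2 library H.

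Both OVOL genes were lower in the H2O2 libraries. OVOL2, a zinc finger repressor on the minus strand of chromosome 20, measured 2.70 and 2.16 CPM in the H2O2 libraries (H, then Q), against 6.55 and 5.56 CPM in the mock libraries (H, then Q). The gap between the groups was larger than the spread within either of them, with means of 2.43 ± 0.385 CPM in H2O2 and 6.05 ± 0.70 CPM in mock (SD, n = 2 each). The log2 fold change was −1.32 (SE 0.26; edgeR, unadjusted p = 0.0036, adjusted p = 0.719), and by unadjusted p OVOL2 ranked 90 among the 27514 genes tested. With DESeq2 its adjusted p was 0.0324 at a fold change of −1.29, so the call of OVOL2 depended on the tool.

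OVOL1, its paralog on chromosome 11, was expressed at a lower level. It measured 0.558 and 0.569 CPM in the H2O2 libraries (H, then Q), against 1.32 and 0.892 CPM in the mock libraries (H, then Q). These values stood for 57 and 68 reads in H2O2 and 128 and 108 reads in mock. The groups did not overlap, and the H2O2 libraries were nearly equal. The log2 fold change was −0.97 (SE 0.35; edgeR, unadjusted p = 0.0375, adjusted p = 0.719). OVOL3, the remaining member of the OVOL family, measured 0.255 and 0.309 CPM in H2O2 and 0.361 and 0.487 CPM in mock (−0.59, SE 0.41; edgeR, adjusted p = 0.781).

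The grainyhead-like factors and ELF3 activate junction genes. GRHL1 on chromosome 2 measured 22.1 and 20.1 CPM in the H2O2 libraries (H, then Q), against 19.3 and 17.1 CPM in the mock libraries (H, then Q). Both H2O2 values lay just above both mock values, and the fold change was 0.21 with an SE of 0.20 (edgeR, adjusted p = 0.822). GRHL2 on chromosome 8, a main activator of E-cadherin in many epithelia, was near the floor, with 17 and 40 reads in H2O2 and 17 and 59 reads in mock. Its groups overlapped, and the fold change of −0.41 (SE 0.67; edgeR, adjusted p = 0.89) was 0.51 without mock library Q. ELF3 on chromosome 1, an ETS factor of epithelial cells, measured 226 and 264 CPM in the H2O2 libraries (H, then Q), against 288 and 243 CPM in the mock libraries (H, then Q). Its groups overlapped, at a log2 fold change of −0.12 (SE 0.22; edgeR, adjusted p = 0.905). A p that misses the threshold does not show that ELF3, GRHL1 or GRHL2 were equal between the groups.

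**Figure D2:**
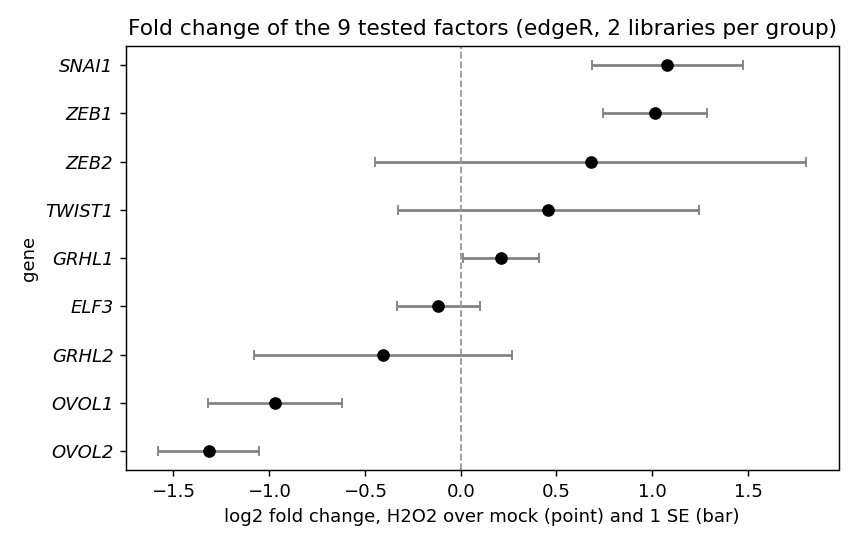
Log2 fold change of H2O2 over mock (point) with 1 standard error (bar) for the 9 factors tested by edgeR over all genes, ordered by size, with a dashed line at 0. OVOL2 (−1.32) and OVOL1 (−0.97) lie at the low end and ZEB1 (1.01) and SNAI1 (1.08) at the high end, and ZEB2 and TWIST1 carry the longest bars.

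Groups did not overlap for 5 of the 9 tested factors. ZEB1, SNAI1 and GRHL1 had both H2O2 values above both mock values, a pattern that 18.1% of all tested genes showed. OVOL1 and OVOL2 had both H2O2 values below both mock values, which 21.3% of all tested genes showed. Separation alone was therefore common in these data.

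The factors differed widely in level when set per length. ELF3 was the highest, at 71.0 to 90.7 CPM per kilobase of transcript over the 4 libraries, and its range lay apart from the next gene. SNAI1 (4.84 to 14.2), ZEB1 (2.88 to 7.89) and GRHL1 (4.81 to 6.20 CPM per kilobase) followed and overlapped one another as neighbours in that order. OVOL2, at 1.39 to 4.21 CPM per kilobase, lay below the range of GRHL1 and above that of OVOL1, at 0.184 to 0.436. Below OVOL1 the ranges of ZEB2, TWIST1, GRHL2 and SNAI2 overlapped from each to the next, down to 0 to 0.0374 CPM per kilobase for SNAI2. Of the pairs of paralogs, ZEB1, SNAI1, OVOL2 and GRHL1 were thus the more abundant members in Huh7 cells.

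A ratio between 2 genes within a library does not depend on how library size is scaled. Reads per kilobase of ZEB1 were 3.97 and 5.69 times those of OVOL2, a known repressor of ZEB1, in H2O2 libraries H and Q, against 0.683 and 1.24 times in mock libraries H and Q. Both H2O2 ratios lay above both mock ratios, and H2O2 over mock came to 5.81 for the H libraries and 4.57 for the Q libraries. SNAI1 to OVOL2 gave 8.17 and 4.80 in H2O2, against 1.15 and 1.41 in mock. Among the epithelial factors OVOL2 to GRHL1 gave 0.280 and 0.246 in H2O2, against 0.778 and 0.743 in mock. ZEB1 to GRHL1 was above 1 in both H2O2 libraries, at 1.11 and 1.40, and below 1 in both mock libraries, at 0.531 and 0.924. These ratios were computed from genes already known to differ and are given without a test.

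**Figure D3:**
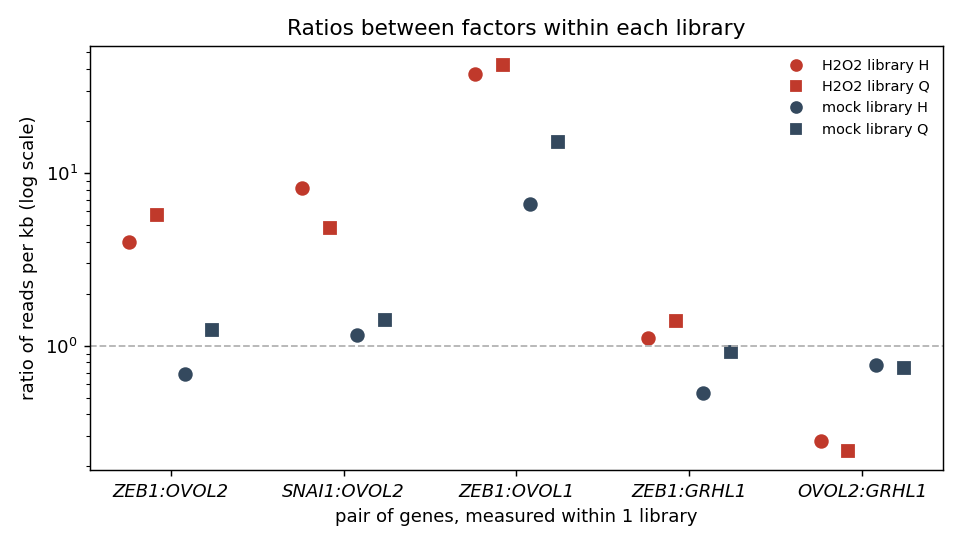
Ratio of reads per kilobase between pairs of factors within each library on a log axis, with H2O2 libraries in red left of mock libraries in dark blue, circles for letter H, squares for letter Q and a dashed line at 1. ZEB1 to OVOL2 lies at 3.97 and 5.69 in H2O2 and at 0.683 and 1.24 in mock, and OVOL2 to GRHL1 lies lower in H2O2 than in mock.

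Promoter sequence was searched for motifs of these factors after their RNA values had been seen. OVOL proteins are known to bind ZEB1 regulatory sequence, but any part of such a motif in the ZEB1 difference was not tested. Windows of 250 bases before to 50 bases after each annotated start came from RefSeq on build GRCh38.p14, and 4 of the 10 factors matched, with 10 windows in all. The OVOL motif CCGTTA, on either strand, stood in 2 of these 10 windows, 1 of ZEB1 and 1 of ZEB2, against 3.07% of all 35116 windows. As 7 of the 10 windows are starts of ZEB1 alone, this share describes these windows and does not show enrichment. In ZEB1 the motif began at position −203 from the start in the fourth of 7 annotated start windows. The start used by the ZEB1 reads in these libraries was not determined. That ZEB1 window, on the plus strand at chr10:31319518-31319817, is shown for its OVOL motif in capitals.
ZEB1 window 4: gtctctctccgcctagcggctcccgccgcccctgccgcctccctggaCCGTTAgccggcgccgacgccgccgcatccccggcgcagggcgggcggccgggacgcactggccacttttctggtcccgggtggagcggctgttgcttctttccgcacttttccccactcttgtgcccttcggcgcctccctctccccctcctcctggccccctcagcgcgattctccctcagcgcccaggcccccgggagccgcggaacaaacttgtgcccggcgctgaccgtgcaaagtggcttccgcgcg

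The E-box CACCTG, searched on both strands, to which ZEB and SNAI proteins bind, stood in 14 of 19 windows of the epithelial target genes examined, or 73.7%, against 20.6% of all windows. These 19 windows belonged to 15 of the 26 genes, some of them overlap, and the genes were listed as known targets, so this share is a property of the list and not a result of the H2O2 comparison. Among the factors it stood in 3 of 10 windows, 2 of ZEB1 and 1 of ELF3. The GRHL motif AACCNGTT stood in none of the 10 factor windows and none of the 19 target windows, against 1.73% of all windows, which says only that these letters are not in these windows. The next windows are shown for genes whose RNA is described further on, with the E-box on either strand in capitals, and in CRB3 also the OVOL motif, which adjoins 1 of its E-boxes. They are CRB3 at chr19:6464021-6464320 on the plus strand, CDS1 at chr4:84582877-84583176 on the plus strand, S100A14 at chr1:153616276-153616575 on the minus strand and AP1M2 at chr19:10587263-10587562 on the minus strand. AP1M2 is included as the only tested target gene with a fold change above 0. Target windows without an E-box are not shown, and some of them belong to genes that were also lower in both H2O2 libraries.
CRB3: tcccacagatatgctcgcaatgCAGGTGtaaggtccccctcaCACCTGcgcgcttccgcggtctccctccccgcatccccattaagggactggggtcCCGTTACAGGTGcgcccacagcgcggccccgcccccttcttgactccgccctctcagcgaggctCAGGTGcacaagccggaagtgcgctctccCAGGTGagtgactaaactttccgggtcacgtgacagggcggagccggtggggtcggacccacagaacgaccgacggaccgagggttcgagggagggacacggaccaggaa
CDS1: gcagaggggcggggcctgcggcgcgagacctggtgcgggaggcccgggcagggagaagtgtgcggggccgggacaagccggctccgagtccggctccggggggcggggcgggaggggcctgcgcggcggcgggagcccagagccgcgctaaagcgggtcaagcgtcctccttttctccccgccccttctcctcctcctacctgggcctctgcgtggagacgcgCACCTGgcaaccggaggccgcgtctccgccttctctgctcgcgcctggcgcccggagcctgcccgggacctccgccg
S100A14: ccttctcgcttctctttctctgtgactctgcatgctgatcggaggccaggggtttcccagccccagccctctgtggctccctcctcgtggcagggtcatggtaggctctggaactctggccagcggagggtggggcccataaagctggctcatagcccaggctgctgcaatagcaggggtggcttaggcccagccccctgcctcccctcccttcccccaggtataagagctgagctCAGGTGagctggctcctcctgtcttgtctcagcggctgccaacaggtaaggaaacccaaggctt
AP1M2: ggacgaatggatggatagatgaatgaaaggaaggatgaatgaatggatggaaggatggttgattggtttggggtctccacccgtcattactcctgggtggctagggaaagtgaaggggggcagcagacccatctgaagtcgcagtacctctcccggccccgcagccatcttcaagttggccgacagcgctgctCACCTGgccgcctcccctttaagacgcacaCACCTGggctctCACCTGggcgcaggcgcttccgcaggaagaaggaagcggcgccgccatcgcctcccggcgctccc
CRB3 held 5 copies of the E-box, CDS1 held 1, S100A14 held 1 and AP1M2 held 3. A match is a description of sequence, and binding was not measured.

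The genes that these factors are known to control leaned downward on the epithelial side. Of 26 epithelial target genes, 25 passed the filter, and 24 of these had a fold change below 0. The median log2 fold change was −0.83, against −0.03 for all tested genes, and it was −0.62 without mock library H. In 18 of the 25, both H2O2 values lay below both mock values (21.3% of all tested genes), and 10 had an unadjusted p under 0.05 in this direction (3.79% of all tested genes). None passed the edgeR test with treatment as the sole term. This list was drawn up with earlier results of these data known, so its direction is not independent evidence.

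S100A14, a small calcium-binding protein of epithelia, measured 0.284 and 0.351 CPM in the H2O2 libraries (H, then Q), against 1.49 and 1.60 CPM in the mock libraries (H, then Q) (−2.28, SE 0.32; edgeR, adjusted p = 0.719). MARVELD3, a tight junction membrane protein, measured 3.05 and 3.29 CPM in H2O2, against 9.30 and 13.0 CPM in mock (−1.81, SE 0.27; edgeR, adjusted p = 0.719). CRB3, a protein of the apical polarity complex and a known direct target of ZEB1, measured 5.70 and 4.46 CPM in H2O2, against 9.95 and 8.28 CPM in mock (−0.84, SE 0.26; edgeR, adjusted p = 0.719). In these 3 genes the groups did not overlap. The E-cadherin gene CDH1 lay at 97.7 and 82.6 CPM in H2O2 and 301 and 211 CPM in mock, and the splicing factor gene ESRP1 at 2.01 and 1.57 CPM in H2O2 and 10.0 and 7.73 CPM in mock. EPCAM, an epithelial adhesion molecule, differed by −1.77 (SE 0.28). Among the tested genes of the list, the exception in direction was AP1M2, a subunit of the epithelial sorting adaptor. It lay at 63.0 and 50.8 CPM in H2O2 and 50.2 and 55.0 CPM in mock. DESeq2 called 139 of the 27514 genes tested. Those of this list named here that passed were ESRP1, MARVELD3, EPCAM, S100A14, CDH1 and CDS1. Their adjusted p (DESeq2) was, in that order, 1.67e-07, 9.42e-05, 0.000393, 0.00086, 0.00384 and 0.00785. CRB3 did not pass (DESeq2, adjusted p = 0.44). How many genes of the whole list passed with DESeq2 was not counted.

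**Figure D4:**
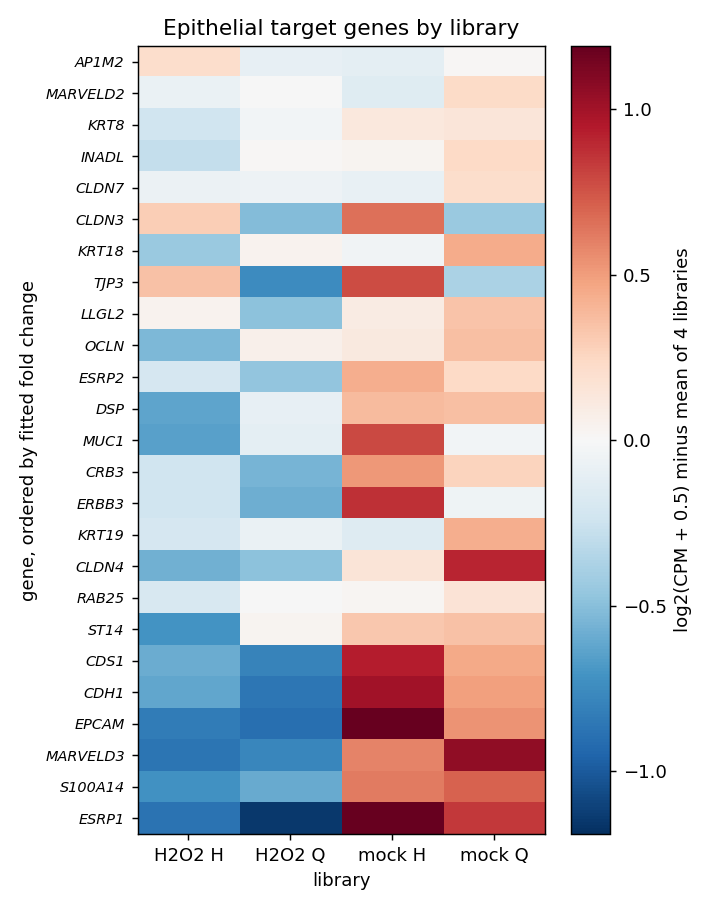
Log2 of CPM plus 0.5 for the 25 tested epithelial target genes, less each gene's mean over the 4 libraries, with H2O2 libraries in the left columns and mock libraries in the right and genes ordered by fitted fold change. The rows at the bottom, from CDS1 to ESRP1, are lower in the H2O2 columns, and CLDN3 and TJP3 follow the letter more than the treatment.

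On the mesenchymal side no upward shift of the target list was seen beside the higher ZEB1 and SNAI1. Of 20 mesenchymal genes, 19 passed the filter, 6 of them with a fold change above 0 and 13 below, at a median of −0.32. Both H2O2 values lay above both mock values in 1 of the 19 and below them in 4, against 18.1% and 21.3% of all tested genes. At an unadjusted p under 0.05 (edgeR), 1 gene was higher and 0 were lower, against 3.11% and 3.79% of all tested genes. The median of the list was −0.06 without H2O2 library H. The largest downward values were those of the matrix genes SPARC (−1.25, SE 1.05), COL3A1 (−1.14, SE 0.85), COL1A2 (−0.94, SE 0.54) and TNC (−0.63, SE 0.43), all at or under 1.13 CPM in every library. As each library was left out, SPARC ran from −4.08 (without H2O2 library Q) to −0.37 (without H2O2 library H) and COL3A1 from −2.71 (without H2O2 library Q) to −0.37 (without mock library Q). Vimentin, VIM, named here as the usual mesenchymal marker and outside the naming rule, measured 229 and 343 CPM in H2O2 and 347 and 509 CPM in mock (−0.58, SE 0.32; edgeR, adjusted p = 0.742). Its groups did not overlap, although the Q value in H2O2 came close to the H value in mock.

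Other inducers were split between higher and lower values. Of 12 listed, 9 passed the filter, 3 with values above 0 and 6 below, at a median of −0.05. FOXC1 (0.56, SE 0.31) and HMGA2 (0.61, SE 0.63) were among those with positive values, and HMGA2 varied more by letter, at 157 and 63.8 CPM in H2O2 and 107 and 37.8 CPM in mock. SNAI3, a further SNAI gene, measured 0.724 and 0.460 CPM in H2O2, against 1.3 and 1.32 CPM in mock (−1.15, SE 0.36; edgeR, adjusted p = 0.719), the opposite direction to SNAI1. SOX4 (−0.64, SE 0.24), KLF8 (−0.61, SE 0.48) and PRRX1 (−0.41, SE 0.73) also had negative values.

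Among 13 other epithelial factors, all tested, 9 had values below 0 and 4 above, at a median of −0.12. EHF, an ETS factor close to ELF3, measured 13.9 and 14.9 CPM in H2O2, against 45.5 and 27.3 CPM in mock (−1.34, SE 0.30; edgeR, adjusted p = 0.719), and its groups did not overlap. SPDEF, a further ETS factor, had 0.832 and 0.251 CPM in H2O2 and 26.0 and 3.09 CPM in mock, with the mock libraries far apart (−4.75, SE 1.22; edgeR, adjusted p = 0.719). Without mock library H the SPDEF value was −2.52. GRHL3 measured 0.352 and 0.209 CPM in H2O2 and 0.444 and 0.413 CPM in mock (−0.61, SE 0.45). ELF5, another ETS factor, measured 0.627 and 0.594 CPM in H2O2 and 0.527 and 0.768 CPM in mock, and its groups overlapped.

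Corepressors that ZEB and SNAI proteins recruit leaned slightly upward, with 14 of 16 above 0, against 47.2% of all tested genes. Their median was 0.21, against −0.03 for all tested genes. Both H2O2 values lay above both mock values in 6 of the 16 and below them in 2, against 18.1% and 21.3% of all tested genes. The largest value was that of the arginine methyltransferase PRMT5 (0.47, SE 0.19; edgeR, adjusted p = 0.719). None had an unadjusted p under 0.05. Genes that govern SNAI1 protein turnover were split, with 5 of 11 above 0. The kinase PRKD1 measured 25.7 and 20 CPM in H2O2, against 14.3 and 12.6 CPM in mock (0.76, SE 0.23). The signalosome subunit COPS2 (0.50, SE 0.24) and the ubiquitin ligase subunit FBXO45 (0.46, SE 0.19) were also above 0, and USP27X (−0.74, SE 0.69) and PAK1 (−0.45, SE 0.21) below.

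TGF-beta is a classic upstream signal for SNAI and ZEB genes. Of 14 genes of its route, 4 had values above 0 and 10 below, against 47.2% of all tested genes above 0. The median was −0.14, against −0.03 for all tested genes. The list mixes transducers with inhibitors such as SMAD7, so its count and median give no direction of the signal. The signal transducer SMAD3 measured 66.2 and 97.2 CPM in H2O2, against 134 and 144 CPM in mock (−0.77, SE 0.25; edgeR, adjusted p = 0.719). Its feedback inhibitor SMAD7 measured 20.6 and 27.8 CPM in H2O2, against 35.9 and 40.5 CPM in mock (−0.66, SE 0.23; edgeR, adjusted p = 0.719). For both, the H2O2 and mock values did not overlap. TGFBR1 (−0.56, SE 0.36) stood apart through mock library H, and SKI differed by −0.42 (SE 0.22).

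**Figure D5:**
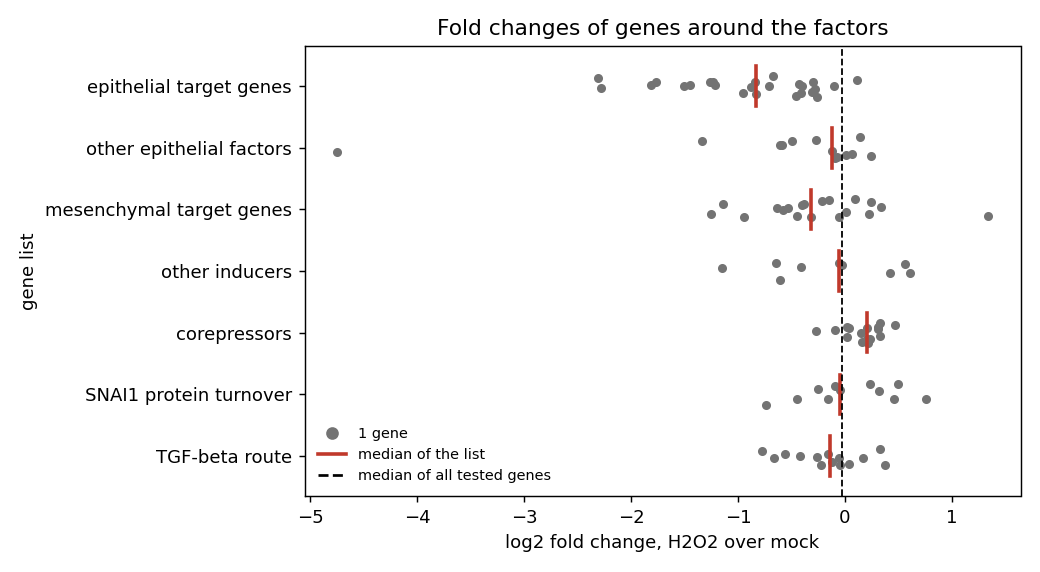
Log2 fold change of H2O2 over mock for each tested gene of the 7 lists (grey points, spread vertically for visibility), with each list's median as a red line and the median of all tested genes as a dashed line. The epithelial target genes have a median of −0.83 and the corepressors of 0.21, beside −0.03 for all tested genes.

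Likeness of profile was measured as the Euclidean distance between log2(CPM + 0.5) values centred on each gene's mean of the 4 libraries, over 130 tested genes of the other lists. OVOL2, whose own profile has a length of 1.19, was closest to CDS1, a phospholipid synthesis enzyme of epithelia (0.292), CRB3 (0.376) and S100A14 (0.381). CDS1 measured 8.93 and 7.69 CPM in H2O2, against 26.6 and 18.9 CPM in mock (−1.45, SE 0.26; edgeR, adjusted p = 0.719). SNAI1 was closest to the growth factor receptor gene PDGFRA (0.376), and PRKD1 (0.559) was also among its nearest 3, and SNAI1, PDGFRA and PRKD1 each had their highest value in H2O2 library H. ZEB1 had no near profile, with TGFBR2 (0.63), CD68 (0.651) and FBXO45 (0.717) the closest against a length of 1.12 of its own. ZEB2 was closest to KLF4 (0.481) and TGFB2 (0.626), which shared its split by letter. KLF4 measured 11.6 and 35.3 CPM in the H2O2 libraries (H, then Q), against 9.28 and 33.3 CPM in the mock libraries (H, then Q). Each distance rests on 4 libraries and carries no test. Neighbours could come only from these lists, which were drawn up with earlier results known. In the epithelial target list 24 of 25 tested genes were below 0, so a lower gene such as OVOL2 readily landed near them. The added 0.5 CPM shrinks differences of low genes such as S100A14, whose log2 fold change was −2.28, against −1.32 for OVOL2.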

How the data were processed

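RNA sequencing libraries from 4 samples were analysed. The submitters' processing notes name the tools Cuffdiff, TopHat 1.3.3, Bowtie 0.12.2 and CASAVA and the builds GRCh37, hg19 and mm8, without saying what each was used for. How reads were counted, on which annotation and whether by strand is not stated. According to the authors' deposited tables, each of 58146 transcript models has a whole-number read count and an FPKM. The deposited counts with 1 model per gene summed to 103851326 to 113082498, above the mapped mates, so some reads were counted more than once and counting precision is overstated. The authors' FPKM did not follow reads over length: the depth it implied in mock library H had a median of 83850600 for models of 1 exon and 3591102 for models of 20. FPKM therefore served in alternatives only.

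The highest-count model of each symbol was kept, genes were filtered with filterByExpr (minimum count 10), and libraries were scaled by TMM. The 27514 genes left were compared between H2O2 and mock by the quasi-likelihood method of edgeR 4.0.16 (two-sided) in R 4.3.3, with 2 residual degrees of freedom and Benjamini-Hochberg adjustment over all genes. The step was tested on simulated counts that held no difference between the letters. That test therefore does not cover the letter differences seen in these data. Transcript lengths came from GENCODE v29, matched by accession, and may differ from the authors' models. Alternatives used DESeq2 1.42.0, limma 3.58.1, other scalings, filters and counts, a block for the title letter, and each library left out in turn. Each list gave up to 4 genes per direction with the largest fold changes, printed from 0.4 log2 units on, a limit chosen after values were seen. AP1M2, ELF5, KLF4, CDH1, CDS1, CRB3 and VIM are named for other reasons given beside them. PATJ appears in the tables as INADL, and 4 antisense genes were not analysed here. A few genes that the naming rule or the likeness measure picked are not reported here. The factors and lists were chosen with earlier results of these data known.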

Additional observations from a re-analysis of the deposited data

How the results depend on the processing

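Over 13 alternative settings, log2 fold changes ranged from 0.73 to 1.38 for ZEB1, 0.43 to 1.53 for SNAI1, −1.23 to −0.66 for OVOL1 and −1.49 to −1.15 for OVOL2, each in 1 direction throughout. The count of genes called, 0 with edgeR, was 139 with DESeq2, 9 with no filter on low counts and 45 with the title letter as a replicate block, and ran from 0 to 11 as each library was left out, with the 11 seen without mock library Q. DESeq2 called 1 factor, OVOL2, and the other settings called 0. The labels do not say whether libraries of the same letter were paired, and the main test did not use the letter. Deviations of H from Q correlated at 0.603 between the groups across tested genes, and with the replicate block the adjusted p (edgeR) was 0.0833 for ZEB1 and for OVOL2. Among named list genes the block brought ESRP1 (0.0306), CDH1 (0.0406), EPCAM (0.0451) and SPDEF (0.0295) past the threshold. Below, the cause of a change of sign was not tested.

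As each library was left out in turn, values that changed sign ran from −1.41 (without H2O2 library Q) to 2.36 for ZEB2, with −0.07 without mock library H. They ran from −0.62 (without H2O2 library H) to 1.1 for TWIST1, −0.98 to 0.51 (without mock library Q) for GRHL2 and −0.24 to 0.01 (without mock library H) for ELF3. Among list genes they ran from −0.18 (without H2O2 library H) to 1.55 for HMGA2, −1.09 to 0.99 (without mock library Q) for PRRX1, and, highest without mock library H, −0.98 to 0.04 for TGFBR1 and −1.27 to 0.05 for USP27X. List medians ran from −0.18 to 0.05 (without H2O2 library Q) for other inducers, −0.02 to 0.15 for SNAI1 turnover, above 0 in each case except without H2O2 library Q, and −0.36 to 0.05 (without mock library Q) for the TGF-beta route. With limma on log2(FPKM + 1), GRHL2 was 0.05, KLF8 0.08, the median of other inducers 0.08 and the turnover median 0.02. With a pseudocount of 0.1, GRHL2 was 0.73, KLF8 0.35, PRRX1 0.15, the median of other inducers 0.2 and the turnover median 0.02. The FPKM filter gave a turnover median of 0.09. SNAI2 and TWIST1 had at most 17 reads in a library, and GRHL2 at most 59.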
